A study of Mus musculus with 6 samples.

Results

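The genes described here are the ligands of the epidermal growth factor receptor and the receptors of the ERBB family, in the top lip of wild type and Gtf2ird1 knockout mice. They were chosen by name, without a rule on their values. These 10 are the ligand genes Areg, Ereg, Hbegf, Tgfa, Btc, Epgn and Egf, and the receptor genes Egfr, Erbb2 and Erbb3. All 10 had counts, out of 26814 gene symbols in the table, and all 10 were among the 15009 genes kept for testing, with a level of 1 CPM (counts scaled by library size) or more in 3 libraries or more. Lip tissue came from adult female mice aged 2 to 6 months on the C57BL/6J background, 3 wild type (WT) and 3 Gtf2ird1 knockout (KO) with the Gtf2ird1tm1Hrd allele (zygosity is not given in the labels), and each mouse gave 1 mRNA library. The comparison asks which transcripts of this signalling system differ in lip skin when Gtf2ird1, a transcription factor gene of the Williams-Beuren syndrome region, is targeted.

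EGF family ligands are made as membrane-anchored precursors and are released by proteases of the ADAM family. They bind receptor tyrosine kinases of the ERBB family, which pair with each other and pass the signal to the RAS, ERK, PI3 kinase and STAT pathways. In skin this system is known for its part in keratinocyte growth, survival and wound repair, and ERBB2 and ERBB3 act as partners of each other and of EGFR.

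Total counts on genes ran from 20164081 in KO1 to 29491767 in KO2, and 3 counts in a library corresponded to 0.0986 to 0.154 CPM. Gtf2ird1 itself had 70.2 to 78.2 CPM in the WT libraries and 144 to 166 CPM in the KO-labelled libraries (log2 fold change 1.11, adjusted p = 0.0018 in edgeR's quasi-likelihood test). The targeted gene was thus higher where the label says knockout, and gene-level counts cannot tell which allele a transcript came from. Directions are therefore given for libraries by their label. On the first principal component of all tested genes, which held 68.6% of the variance, KO3 lay at 9.6, between the WT libraries (-44.4 to -27.9) and KO1 and KO2 (56.4 and 48.6). For members and pathway genes near the threshold, the value without KO3 is therefore given too. Leaving it out raised the genes called over the whole table from 657 to 2496 higher and from 314 to 2395 lower. The fit without KO3 tested 14802 genes, and a call gained there is read against these counts.

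Of the 10 genes, Epgn alone passed an adjusted p of 0.05, and it rose by a factor of 22.1 in the KO-labelled libraries. Thus 1 of 10 members was called higher, which compares with 4.38% of all tested genes (6.47% in either direction). Ereg and Hbegf had mean levels 2.47 and 1.99 times the WT level without passing the test. The receptor transcripts differed by at most 1.22-fold. No member was called lower by the quasi-likelihood test, no member with a lower level had an unadjusted p under 0.05, and no alternative fit called one lower. Over the 10 members the median log2 fold change was 0.25, against -0.02 for all 15009 genes.

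**Figure D1:**
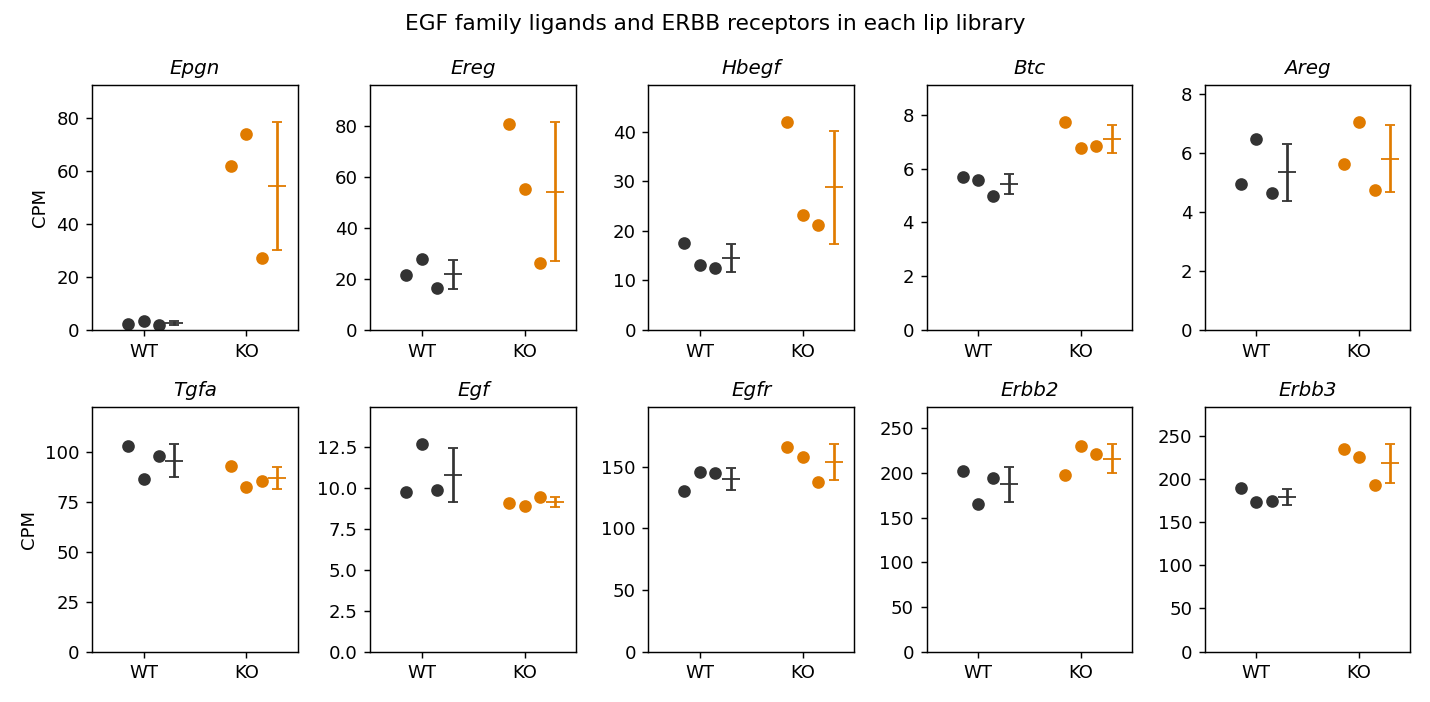
Level of each EGF family ligand and ERBB receptor in CPM (vertical axis from 0) in the 3 WT (dark) and 3 KO-labelled libraries (orange), in the order of replicate 1 to 3, with mean and SD at the right of each group. Epgn separates the genotypes by a wide margin, from at most 3.32 CPM in WT to at least 27.3 CPM in the KO-labelled libraries. The values of Ereg, Areg, Tgfa, Egfr and Erbb2 overlap.

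Epgn encodes epigen, a ligand of EGFR with low binding affinity that is mitogenic for epithelial cells. It had 2.10, 3.32 and 1.93 CPM in WT1, WT2 and WT3, and 61.8, 73.7 and 27.3 CPM in KO1, KO2 and KO3. These levels rest on 43 to 78 reads per WT library and on 596 to 2241 reads per KO-labelled library, and the groups were far apart, with KO3 the lowest of the KO-labelled libraries. The mean level was 2.45 ± 0.753 CPM in WT and 54.2 ± 24.1 CPM in the KO-labelled libraries (SD, n = 3 each). The log2 fold change was 4.47 with a standard error (SE) of 0.42 (95% interval 3.51 to 5.42, adjusted p = 0.000627, edgeR's quasi-likelihood test). Among all tested genes, 98, Epgn included, had a log2 fold change at least as high. Epgn passed with any 1 library left out (6 of 6), with log2 fold changes from 4.24 to 4.80, and without KO3 the adjusted p was 3.57e-06.

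Epgn is on chromosome 5 of GRCm38, at 91027464 to 91035215 on the plus strand, and no annotated gene overlaps it. Its upstream sequence is shown because Epgn is the member that rose, beside that of its neighbour Areg, which did not pass the test. The sequences run 5′ to 3′ on the plus strand up to the base before the annotated gene start, at chr5:91027267-91027463 for Epgn and chr5:91139349-91139598 for Areg (RefSeq promoter table, build GRCm38.p6), with TATAAA in capitals.
Epgn: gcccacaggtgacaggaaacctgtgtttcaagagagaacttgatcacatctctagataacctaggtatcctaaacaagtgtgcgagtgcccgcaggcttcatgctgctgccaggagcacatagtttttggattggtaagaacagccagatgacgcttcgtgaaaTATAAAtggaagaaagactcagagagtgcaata
Areg: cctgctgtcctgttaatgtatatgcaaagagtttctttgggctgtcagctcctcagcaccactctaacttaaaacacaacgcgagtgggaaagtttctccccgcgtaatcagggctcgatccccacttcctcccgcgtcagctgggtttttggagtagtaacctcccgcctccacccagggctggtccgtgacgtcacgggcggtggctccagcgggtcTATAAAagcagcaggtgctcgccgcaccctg
The TATAAA began 33 bases before the GENCODE start of Epgn (86 before the RefSeq start) and 31 bases before that of Areg. Promoter windows of 300 bases (250 before to 50 after the RefSeq start) were searched on both strands for TATAAA, for the AP-1 motif TGANTCA, for an interferon response element (2 GAAA runs with any 2 bases between them) and for GGATTA, the core to which GTF2IRD1 is known to bind. TATAAA occurred in 13.6% of all 32851 promoter windows, TGANTCA in 7.81%, the interferon element in 3.44% and GGATTA in 7.06%. None of the last 3 occurred in the windows of Epgn, Areg, Btc, Tgfa, Egf, Egfr or Erbb2, which says only that these letters are not in those windows. No promoter window was available for Ereg, Hbegf or Erbb3, so these members were not searched. Letter matches are a description and no evidence of binding.

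Epgn lies in a cluster of 4 EGF family ligand genes, with the middle of Ereg 52.8 kb, that of Areg 112.7 kb and that of Btc 348.8 kb away. Epgn was the one gene of the 4 to pass the test. Ereg encodes epiregulin, a ligand that EGFR and ERBB4 share. It had 21.7, 27.8 and 16.4 CPM in WT1, WT2 and WT3, and 81.0, 55.3 and 26.3 CPM in KO1, KO2 and KO3. KO1 and KO2 lay above all WT libraries, and KO3 lay within their range. The log2 fold change of 1.30 (SE 0.38, 95% interval 0.43 to 2.18) missed the threshold (adjusted p = 0.0782, quasi-likelihood fit). edgeR's exact test gave Ereg an adjusted p of 0.0022, and the 9 alternatives ran from 0.0022 to 0.102. Without KO3 the log2 fold change of Ereg was 1.64, with an adjusted p of 0.00164. Of the 6 fits with a library left out, Ereg passed in this 1 alone (adjusted p up to 0.232 in the others). Gm19610 overlaps Ereg on the opposite strand, and counting by strand is not stated.

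Areg encodes amphiregulin, a heparin-binding ligand of EGFR. It had 4.94, 6.46 and 4.63 CPM in the WT libraries and 5.63, 7.04 and 4.76 CPM in the KO-labelled libraries. The groups overlapped, and the log2 fold change was 0.12 (95% interval -0.39 to 0.64, adjusted p = 0.736 in the quasi-likelihood test). Btc encodes betacellulin, a ligand of EGFR and ERBB4. It had 5.70, 5.57 and 4.99 CPM in WT and 7.73, 6.77 and 6.86 CPM in the KO-labelled libraries, which all lay above the WT values. Its log2 fold change of 0.39 (SE 0.17, adjusted p = 0.166) did not pass, nor did Btc without KO3 (adjusted p = 0.107).

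Set against Areg in the same library, the ratio of Epgn to Areg, both in CPM per kilobase of exon (RPKM), was -1.80, -1.54 and -1.83 on the log2 scale in WT and 2.88, 2.82 and 1.95 in the KO-labelled libraries. The groups did not overlap and differed by 4.27 (exact permutation, two-sided, p = 0.1, which is as low as 3 against 3 can reach). The log2 ratio of Epgn to Ereg moved from between -2.17 and -1.88 to between 0.80 and 1.60, a difference of 3.19 (exact permutation p = 0.1).

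**Figure D2:**
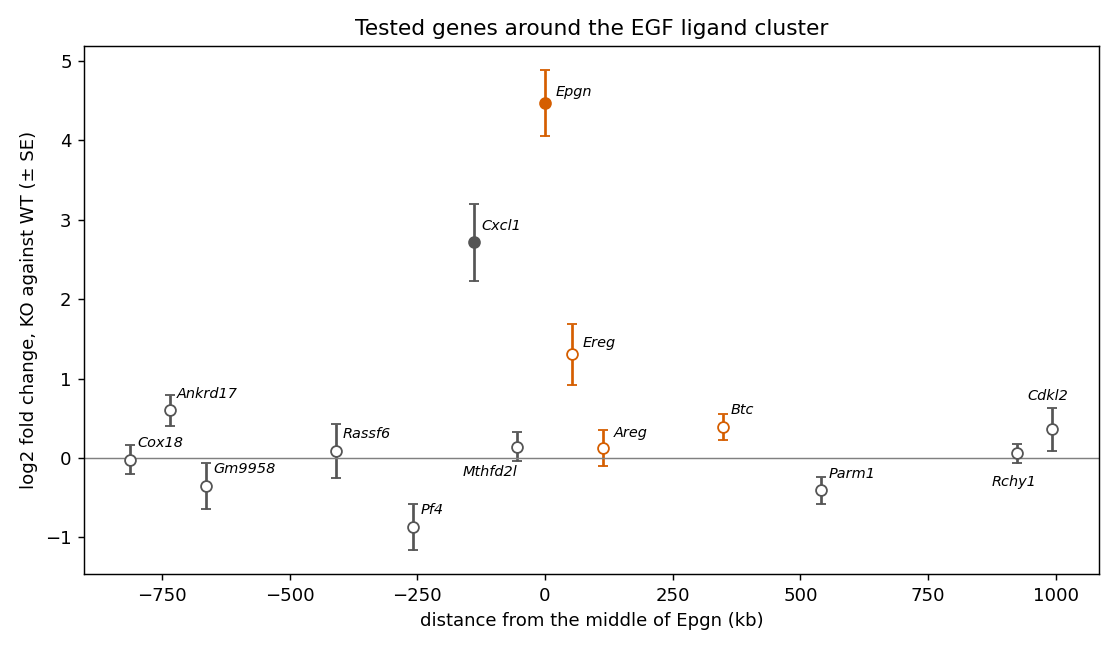
Log2 fold change between KO-labelled libraries and WT (vertical axis, ± standard error) of the 14 tested genes within 1000 kb of Epgn, by distance from the middle of Epgn in kb. Orange marks EGF family ligands and filled circles an adjusted p under 0.05, which Epgn and Cxcl1 reached, Cxcl1 having met the filter on low levels only through the KO-labelled libraries, while Mthfd2l between them lay at 0.14.

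Within 1000 kb on either side of Epgn, 14 genes were tested and 2 were called, both higher, where 4.38% of all tested genes were called higher. Epgn was above 1 CPM in all 6 libraries. The second was Cxcl1, a neutrophil-attracting chemokine, chosen for mention after its values were seen. It met the filter only through the KO-labelled libraries, where it is high, so its call and the count of 2 support nothing about the locus. Cxcl1 had 0.128 to 0.508 CPM in WT and 1.45 to 3.33 CPM in the KO-labelled libraries (log2 fold change 2.71, standard error 0.49, adjusted p = 0.0175). Mthfd2l, a mitochondrial folate enzyme gene that lies between Cxcl1 and Epgn, had 4.34 to 4.50 CPM in WT and 4.12 to 5.42 CPM in the KO-labelled libraries (log2 fold change 0.14, adjusted p = 0.631).

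The other ligand genes lie on other chromosomes. Hbegf (chromosome 18, 36504927 to 36515805) encodes heparin-binding EGF-like growth factor, a ligand of EGFR and ERBB4 with a known part in keratinocyte migration during wound closure. It had 17.6, 13.2 and 12.5 CPM in WT1, WT2 and WT3, and 41.9, 23.2 and 21.2 CPM in KO1, KO2 and KO3. All values of the KO-labelled libraries lay above the WT values, and KO1 stood highest. The log2 fold change of 0.99 (SE 0.28, 95% interval 0.35 to 1.64) did not pass (adjusted p = 0.0738, quasi-likelihood fit). The exact test gave Hbegf an adjusted p of 0.00631, and the 9 alternatives ran from 0.00571 to 0.0827. Without KO3 its log2 fold change was 1.17 (adjusted p = 0.00805). Of the 6 fits with a library left out, Hbegf passed in this 1 alone (adjusted p up to 0.224 in the others).

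Tgfa (chromosome 6, 86195223 to 86275719) encodes transforming growth factor alpha, an autocrine ligand of keratinocytes. It had 103, 86.5 and 97.8 CPM in WT and 93.1, 82.4 and 85.3 CPM in the KO-labelled libraries, with overlap between the groups. The log2 fold change was -0.14 (95% interval -0.43 to 0.15, adjusted p = 0.489). Gm43917 overlaps Tgfa on the opposite strand.

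Egf (chromosome 3, 129677565 to 129755316) encodes the founding ligand, which salivary glands are known to make in quantity. It had 9.76, 12.7 and 9.89 CPM in WT and 9.11, 8.91 and 9.47 CPM in the KO-labelled libraries. The values of the KO-labelled libraries lay just below those of WT, but the log2 fold change of -0.24 (SE 0.17, adjusted p = 0.375) did not pass. Of 8 salivary gland markers, 4 had no row in the table and 1 was tested. That one, the water channel gene Aqp5, which glands other than salivary ones also express, rose from 10.6 ± 1.95 to 68.7 ± 16.6 CPM (log2 fold change 2.69, adjusted p = 0.000349). The 4 markers with a row summed to 8.89 to 12.5 CPM in WT and 53.2 to 86.8 CPM in the KO-labelled libraries. Nearly all of this was Aqp5, and the other markers were near 0 in both groups. Genes on the opposite strand, 6330410L21Rik among them, and Gm24515 on the same strand overlap Egf.

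**Figure D3:**
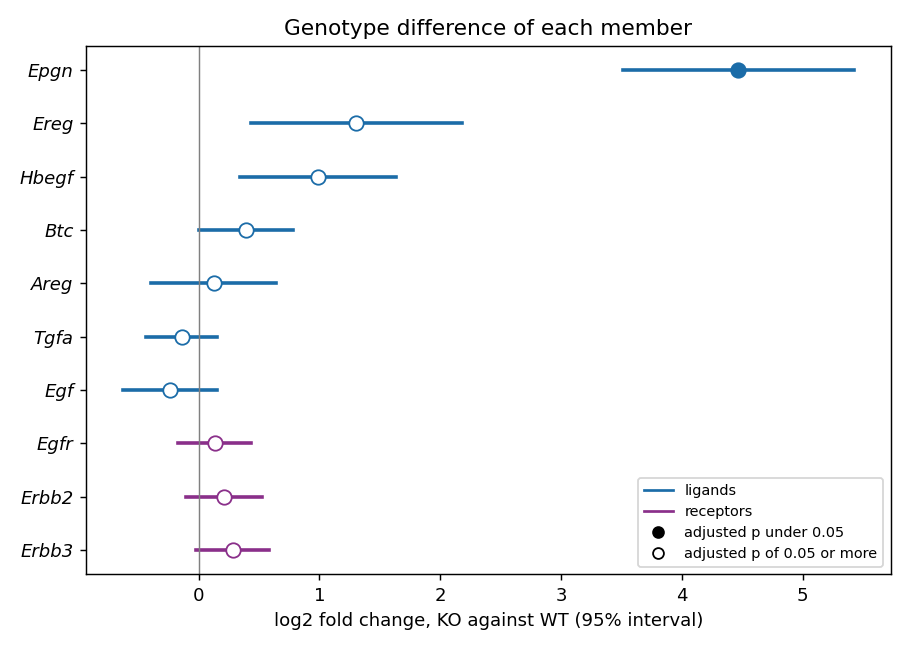
Log2 fold change of each member between KO-labelled libraries and WT (points) with 95% intervals from the quasi-likelihood fit (lines), ligands in blue and receptors in purple. Epgn at 4.47 is the single filled point (adjusted p under 0.05), and the intervals of the 3 receptors all include 0.

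None of the receptor genes passed the test. Egfr (chromosome 11, 16752203 to 16918158), the receptor that binds all 7 of these ligands, had 130, 146 and 145 CPM in WT and 166, 158 and 138 CPM in the KO-labelled libraries. The groups overlapped, with a log2 fold change of 0.13 (95% interval -0.17 to 0.43, adjusted p = 0.517). In folds, this interval ran from 0.891 to 1.35. Egfros overlaps Egfr on the opposite strand.

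Erbb2 (chromosome 11, 98412470 to 98437716) encodes a receptor without a known ligand of its own, which serves as the preferred partner of the others. It had 202, 165 and 194 CPM in WT and 198, 230 and 221 CPM in the KO-labelled libraries (log2 fold change 0.21, 95% interval -0.10 to 0.52, adjusted p = 0.325). Mien1 overlaps Erbb2 on the opposite strand.

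Erbb3 (chromosome 10, 128567523 to 128589652) encodes a neuregulin receptor whose own kinase is weak and which signals mainly through its partners. It had 190, 173 and 174 CPM in WT1, WT2 and WT3, and 235, 225 and 193 CPM in KO1, KO2 and KO3. The values of the KO-labelled libraries lay above those of WT, with KO3 close to WT1. The log2 fold change was 0.28 (SE 0.13, 95% interval -0.02 to 0.59, adjusted p = 0.189), and without KO3 Erbb3 had 0.37 (adjusted p = 0.0572). Of the 3 receptors, 0 passed the quasi-likelihood test, 0 had an unadjusted p under 0.05 and 0 passed in the exact test.

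In 5 of the 10 members the genotypes did not overlap, which held for 31.5% of all tested genes. These were Epgn, Hbegf, Btc and Erbb3, with higher values in the KO-labelled libraries, and Egf, with lower values. The exact test called 3 members, Epgn, Ereg and Hbegf, all higher, where it called 14.9% of all tested genes (7.76% higher). At an unadjusted p under 0.05 were 4 members, these 3 and Btc, against 29.6% of all tested genes.

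Per kilobase of exon the receptors led the family in WT. Erbb2 stood at 35.9 ± 3.70 RPKM and Erbb3 at 29.8 ± 1.58 RPKM (SD, n = 3), with the lowest Erbb2 value, 31.7, just above the highest Erbb3 value, 31.6. Tgfa followed at 14.7 ± 1.28 RPKM and Egfr at 12.4 ± 0.798 RPKM, without overlap. Ereg at 5.32 ± 1.39 RPKM and Areg at 4.40 ± 0.807 RPKM overlapped, and Hbegf was below both at 2.99 ± 0.575 RPKM. Epgn at 1.36 ± 0.417 RPKM, Btc at 1.20 ± 0.0832 RPKM and Egf at 0.957 ± 0.148 RPKM formed the low end, and each of these overlapped the next in the order.

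In the KO-labelled libraries the order changed at one place above all. Epgn, near the bottom in WT, stood next after Erbb2 and Erbb3 at 30.0 ± 13.3 RPKM, where its values of 15.1 to 40.8 overlapped those of Erbb3 (32.0 to 39.1 RPKM) but lay above those of Egfr (12.2 to 14.6 RPKM). Tgfa (13.4 ± 0.852 RPKM) and Ereg (13.1 ± 6.63 RPKM) overlapped. Btc stood at 1.58 ± 0.117 RPKM and Egf, the lowest in both groups, at 0.813 ± 0.025 RPKM.

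**Figure D4:**
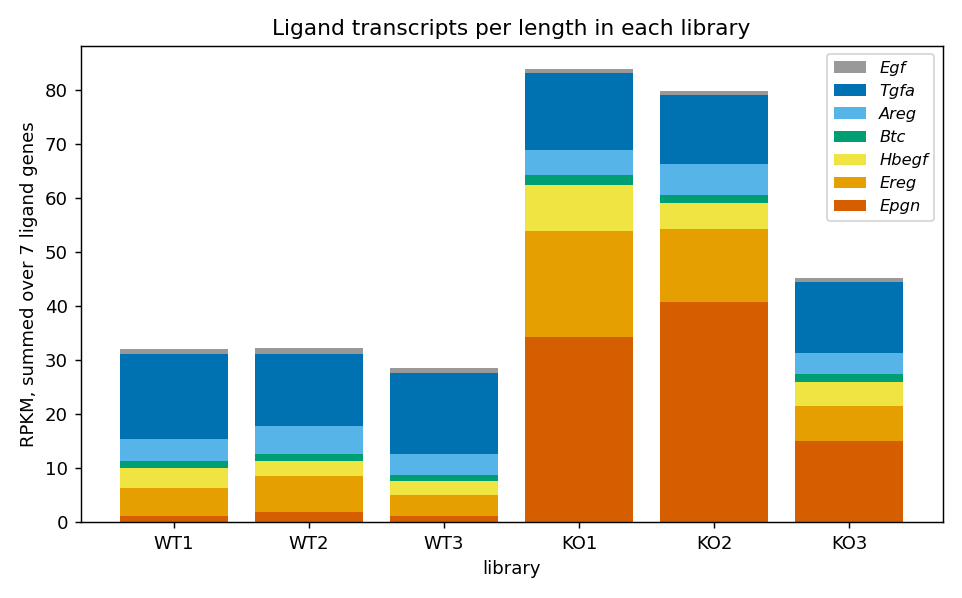
Level per length (RPKM, CPM per kilobase of exon) of the 7 ligand genes stacked for each library. The stack is 28.5 to 32.3 RPKM high in the WT libraries and 45.3 to 84.0 RPKM in the KO-labelled libraries, and the Epgn segment at the base accounts for most of the difference.

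Summed over the 7 ligand genes, the level was 32.1, 32.3 and 28.5 RPKM in WT and 84.0, 79.8 and 45.3 RPKM in the KO-labelled libraries. Epgn contributed 4.36 ± 1.15% of this sum in WT and 41.7 ± 8.94% in the KO-labelled libraries (SD, n = 3). Tgfa, the leading ligand transcript in every WT library with 41.2% to 52.9% of the sum, contributed 15.9% to 29.0% in the KO-labelled libraries. Without Epgn the sums were 27.4 to 30.9 RPKM in WT, and 49.8, 39.0 and 30.2 RPKM in KO1, KO2 and KO3, so that KO3 then lay within the WT range. Summed over the 3 receptor genes, the level was 73.3 to 81.7 RPKM in WT and 86.6 to 95.5 RPKM in the KO-labelled libraries. These sums count transcripts and say nothing of ligand protein or of its release.

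Across the 6 libraries Epgn and Btc had a Pearson correlation of log2 CPM of 0.92, Ereg and Erbb3 of 0.92, and Hbegf and Btc of 0.94, while Epgn and Tgfa had -0.64. The points are the same 6 libraries, which differ by genotype, so these values describe the shared separation. By the same measure the 3 tested genes most like Epgn were Arhgef26 (0.9981), Gm16332 (0.9978) and Cttnbp2nl (0.9975), and 1007 tested genes reached at least 0.9. Those most like Erbb3, the receptor with the lowest p, were Esrp1 (0.9977), Pnpla1 (0.9941) and Ammecr1 (0.9939).

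Lip is a mixture of epidermis, dermis, glands and muscle, and in bulk tissue fewer cells of a type and less RNA per cell cannot be told apart. The counts below are to be read against all tested genes, of which 4.38% were called higher and 2.09% lower. The exact test called 14.9% in either direction (7.76% higher), and 29.6% had an unadjusted p under 0.05. All 8 basal keratinocyte markers were tested, and their summed level was 11300 to 12100 CPM in WT and 11500 to 12800 CPM in the KO-labelled libraries (1 called higher, and 1 by the exact test). The 10 suprabasal markers summed to 22100 to 27100 CPM in WT and 34500 to 53200 CPM in the KO-labelled libraries (1 called higher, 6 by the exact test), lowest in KO3 and highest in KO1. The 8 wound and hyperproliferation markers summed to 3930 to 5700 CPM in WT and 6100 to 9650 CPM in the KO-labelled libraries (2 called higher, 5 by the exact test). The 10 mitosis genes summed to 264 to 457 CPM and 549 to 793 CPM (2 called higher, 5 by the exact test). The 12 skeletal muscle markers summed to 13500 to 17400 CPM in WT and 6590 to 10600 CPM in the KO-labelled libraries (2 called lower, 10 by the exact test, and 12 at an unadjusted p under 0.05). The 12 hair follicle markers summed to 8870 to 11200 CPM and 5690 to 7460 CPM (2 called lower, 6 by the exact test, and 10 at an unadjusted p under 0.05). Schwann cell markers, a cell type that depends on ERBB3, summed to 483 to 518 CPM in WT and 298 to 437 CPM in the KO-labelled libraries, with 0 of 8 called in the quasi-likelihood test, 4 at an unadjusted p under 0.05 and 1 called in the exact test. Melanocyte markers summed to 44.8 to 62.9 CPM and 40.1 to 46.8 CPM, with 0 of 5 tested called by either test and 0 at an unadjusted p under 0.05. Dermal fibroblast markers summed to 6580 to 8530 CPM in WT and 2880 to 6880 CPM in the KO-labelled libraries (0 of 8 called by either test, 1 at an unadjusted p under 0.05). The 8 interferon response genes, all called higher, summed to 47.9 to 60.2 CPM in WT and 162 to 411 CPM in the KO-labelled libraries.

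Each member was also divided by these epidermal sums, a scale added after the data had been seen. Relative to the basal markers, Epgn differed by 4.31 on the log2 scale, Ereg by 1.12 and Hbegf by 0.87, while Tgfa differed by -0.21. Of these, Ereg overlapped between the groups. Relative to the suprabasal markers, whose sum rests mostly on Krt1 and Krt10, Epgn differed by 3.61. The genotypes still did not overlap in Epgn (exact permutation p = 0.1, the smallest possible). On that second scale Ereg differed by 0.42 and Hbegf by 0.16 with overlap. The other members had lower means in the KO-labelled libraries, from -0.38 for Btc to -1.0 for Egf. Among these, Erbb2 (-0.56) also overlapped between the groups. The direction of Areg, Btc and the receptors therefore depends on the scale, and that of Epgn does not under any scale used. The part of tissue makeup in the difference of any member, Epgn included, was not tested.

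Further genes of the pathway were read from the same fit in 7 lists of 97 genes, of which 95 were tested. The test called 3 higher and 1 lower, or 4.21%, where 6.47% of all tested genes were called. Of these 4 genes, 3 are negative regulators of the receptors, and the other is an ERK target gene. The median log2 fold change of the 95 genes was 0.06.

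**Figure D5:**
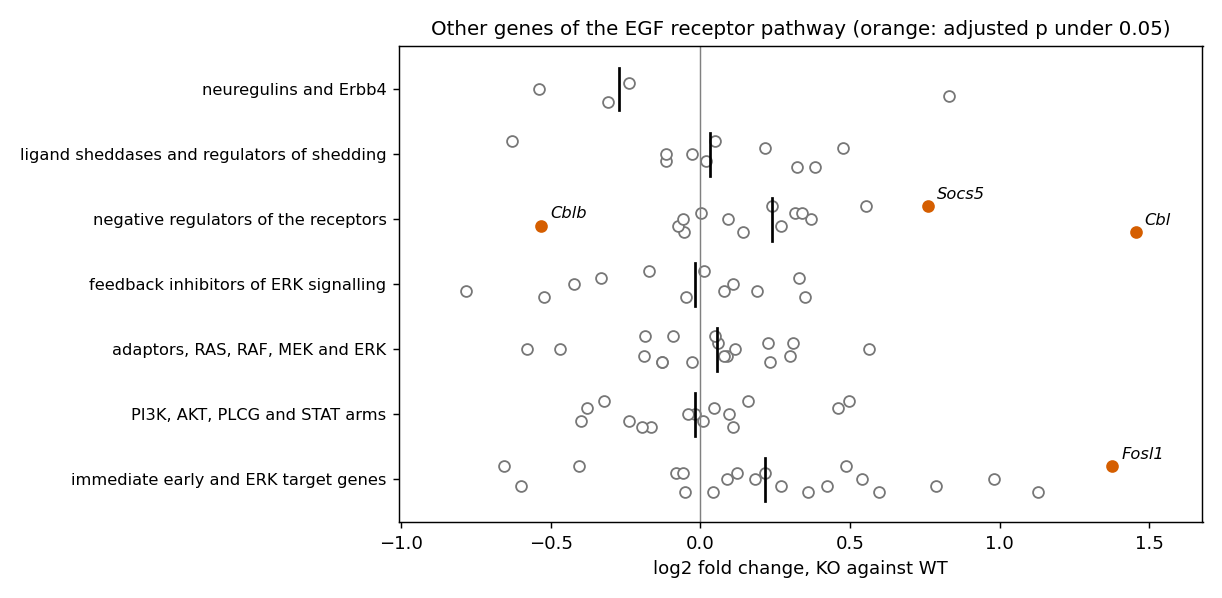
Log2 fold change between KO-labelled libraries and WT (horizontal axis) of 95 tested pathway genes, 1 circle each, in 7 lists, with the median of each list as a black bar. The 4 orange circles passed an adjusted p of 0.05, Cbl at 1.45, Fosl1 at 1.38, Socs5 at 0.76 and Cblb at -0.53.

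Of 15 negative regulators, 2 were called higher and 1 lower, with a median of 0.24 (5 higher and 1 lower without KO3). Cbl, which encodes a ubiquitin ligase that sends activated EGFR to degradation, had 39.0, 46.6 and 43.1 CPM in WT and 115, 132 and 105 CPM in the KO-labelled libraries. Its log2 fold change was 1.45 (SE 0.14, adjusted p = 0.000847), and it passed with any 1 library left out (6 of 6) and in 9 of 9 alternatives. Gm47255 overlaps Cbl on the opposite strand and 5830462O15Rik on the same strand.

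Socs5, which encodes an adaptor that promotes degradation of EGFR, rose from 38.7 ± 4.39 to 65.6 ± 6.23 CPM (log2 fold change 0.76, adjusted p = 0.0223). It passed in 9 of 9 alternatives but, with 1 library left out, in 2 of 6, with adjusted p-values up to 0.112. Cblb, a relative of Cbl, changed from 39.1 ± 2.09 to 27.1 ± 1.74 CPM (log2 fold change -0.53, adjusted p = 0.0499). Cblb lay at the edge of the threshold and passed in 2 of 9 alternatives and in 1 of 6 with a library left out, with adjusted p-values from 0.016, without KO3, to 0.232. Lrig1, which encodes a membrane protein that restrains EGFR in epidermal stem cells, had 125 to 127 CPM in WT and 137 to 143 CPM in the KO-labelled libraries (log2 fold change 0.14, adjusted p = 0.411). Errfi1, a feedback inhibitor of the EGFR kinase, had a log2 fold change of 0.32 (adjusted p = 0.338).

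Of 21 immediate early and ERK target genes tested, 1 was called higher and 0 lower in the quasi-likelihood test, with a median of 0.21. The exact test called 2 of them higher, Fosl1 and Dusp1, and 0 lower. Fosl1, an AP-1 subunit that ERK activity is known to induce and stabilize, had 6.02, 3.95 and 3.87 CPM in WT and 11.8, 11.7 and 12.6 CPM in the KO-labelled libraries. Its log2 fold change was 1.38 (SE 0.21, adjusted p = 0.00895), and of the fits with a library left out it missed the threshold without WT replicate 3 alone (adjusted p = 0.0531). Fos stood at 59.3 CPM in KO1 and at 12.2 to 18.2 CPM in all other libraries (log2 fold change 0.98, adjusted p = 0.237). Dusp1 likewise was highest in KO1, at 129 CPM, against 45.0 to 75.6 CPM elsewhere (log2 fold change 0.79, adjusted p = 0.102). Without KO3, 6 genes of this list were called higher, Dusp1 among them (adjusted p = 0.0283), and 3 lower. KO1 is also the library with the highest Ereg and Hbegf, and with the highest sum of wound and hyperproliferation markers (9650 CPM). This rests on 1 library, and a link between these levels was not tested.

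Of 18 genes for adaptors, RAS, RAF, MEK and ERK, 0 were called by the quasi-likelihood test and 0 by the exact test, 3 had an unadjusted p under 0.05, and the median was 0.05. The lowest p-values in this list were those of Gab1, a docking adaptor (log2 fold change -0.47, adjusted p = 0.0618), and Nras (0.56, adjusted p = 0.0795). Without KO3 both passed (adjusted p = 0.0141 for Gab1 and 0.0127 for Nras), and the list had 3 genes called higher and 2 lower. Of 15 genes of the PI3 kinase, AKT, PLCG and STAT arms, 0 were called by either test and 2 had an unadjusted p under 0.05, with a median of -0.02, and the lowest p-values were those of Pik3cb, a catalytic subunit (log2 fold change 0.50, adjusted p = 0.118), and Stat5a (-0.38, adjusted p = 0.168). Without KO3 these passed as well (0.00525 and 0.0248), among 2 called higher and 3 lower. Over all 14802 genes of that fit, 2496 were called higher and 2395 lower. Of 12 feedback inhibitors of ERK signalling, 0 were called by the quasi-likelihood test, 2 had an unadjusted p under 0.05 and 1, Spry4, was called lower by the exact test (log2 fold change -0.78, adjusted p = 0.0744 in the quasi-likelihood test, 0.03 in the exact test). Spry4 encodes a Sprouty protein that restrains signalling from receptors to ERK. The next lowest p was that of Dusp4, which encodes an ERK phosphatase (log2 fold change -0.52, adjusted p = 0.11). Without KO3, Spry4 passed (adjusted p = 0.014) and Dusp4 did not (0.0551), and the list had 1 gene called higher and 2 lower. Dusp6, a phosphatase of ERK often read as a sign of ERK activity, had 74.4 to 81.6 CPM in WT and 73.6 to 92.4 CPM in the KO-labelled libraries (log2 fold change 0.11, adjusted p = 0.605).

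Of 10 sheddases and regulators of shedding, 0 were called by the quasi-likelihood test and 0 by the exact test, 3 had an unadjusted p under 0.05, and the median was 0.03. Adam17, the main releasing protease for Areg, Ereg, Hbegf, Tgfa and Epgn products, had 45.7, 60.7 and 54.5 CPM in WT and 79.1, 81.3 and 63.1 CPM in the KO-labelled libraries. These did not overlap, and the log2 fold change of 0.48 (SE 0.16) had an adjusted p of 0.103. Adam10, which releases Egf and Btc products, had a log2 fold change of 0.38 (adjusted p = 0.168). Adam19 had the second lowest p of the list (log2 fold change -0.63, adjusted p = 0.148). Without KO3, Adam17 (adjusted p = 0.0171) and Adam19 (0.00889) passed, among 2 called higher and 1 lower. Iah1 overlaps Adam17 on the opposite strand.

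Among the neuregulins, the ligands of ERBB3 and ERBB4, and Erbb4 itself, 4 of 5 genes were tested and 0 were called by either test. At an unadjusted p under 0.05 were Nrg1, at 2.23 ± 0.72 CPM in WT and 4.01 ± 1.19 CPM in the KO-labelled libraries (log2 fold change 0.83, adjusted p = 0.135), and Nrg2, at 5.32 ± 0.36 and 3.64 ± 0.583 CPM (log2 fold change -0.54, adjusted p = 0.12). Erbb4, the fourth receptor of the family, had 21 to 72 reads per library and 0.164 RPKM in WT, where Erbb3 had 29.8 RPKM. Without KO3, Nrg1 (adjusted p = 0.0718) and Nrg2 (0.0585) again did not pass. Nrg3 had at most 1 read in any library and was not tested.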

How the data were processed

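Lip mRNA of 3 WT and 3 KO mice was sequenced as 100 nt paired-end reads. The authors mapped reads to GRCm38 with TopHat2 2.0.8 and Bowtie2 2.1.0 and deposited raw counts of reads that HTSeq assigned uniquely to each gene. HTSeq's overlap mode and use of strand are not given in the sources used here. All 6 columns were used.

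From the deposited counts, those at 1 CPM or more in 3 or more libraries were tested with edgeR 4.0.16 (R 4.3.3, TMM, glmQLFit with legacy=FALSE, glmQLFTest), with Benjamini-Hochberg adjustment over all tested genes and a threshold of 0.05. CPM use TMM library sizes. RPKM divide them by the union of annotated exons (GENCODE M21, GRCm38). Standard errors come from the fitted F statistic, and 3-count limits cover counting error only. Each library is a separate mouse, and the tests weigh the difference between the groups against the variation between mice within a group.

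Alternatives were edgeR's exact test, DESeq2 1.42.0, limma-voom (limma 3.58.1), 3 other scalings, 2 other filters, a replicate block, a threshold of 0.1 and each library left out. Members, lists and markers were chosen with earlier results of these data known. All 10 members are named. In each pathway list the called genes with the lowest p are named (at most 2 per direction) or, with none called, the 2 genes with the lowest p. Lrig1, Errfi1, Fos, Dusp1, Dusp6, Adam10, Erbb4, Nrg3, Aqp5, Cxcl1 and Mthfd2l were added after their values were seen. Replicates differed by more than sampling noise.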

Additional observations from a re-analysis of the deposited data

How the results depend on the processing

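Epgn kept its call in 9 of 9 alternatives (log2 fold change 4.39 to 4.51) and in all 6 fits with a library left out, and no member changed direction in the planned fits. The count of members called higher was 3 (Epgn, Ereg and Hbegf) with the exact test, DESeq2, no filter, the replicate block and an adjusted p under 0.1, and ran from 1 to 3 with a library left out, 3 without KO3 alone. Over all genes, the exact test called 1165 higher and 1073 lower, DESeq2 1511 and 898, and an adjusted p under 0.1 gave 1248 and 1281. Lower genes numbered 207 with DESeq2's size factors, 204 with no filter and 204 with at least 10 counts in every library. With a library left out, higher genes ran from 208 (without KO2) to 2496 (without KO3) and lower genes from 18 to 2395. Of the pathway lists, DESeq2 called 8 higher and 3 lower, an adjusted p under 0.1 gave 6 and 5, and 0 were called lower with limma-voom, DESeq2's size factors, library size alone, no filter, at least 10 counts in every library and the replicate block. With a library left out these counts ran from 1 to 19 higher and from 0 to 12 lower, the highest without KO3. The causes of these shifts were not tested.

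The replicate block gave 580 genes higher and 217 lower, with Ereg at an adjusted p of 0.0492 and Hbegf at 0.0317. Samples with the same number correlated at -0.19, 0.31 and 0.33 in their deviations from the group means, and WT1 and WT2 correlated better with another number, so the numbers were not taken as pairs. With 3 libraries a group small differences can be missed, and where an interval includes 0, a difference within it is not excluded. Leaving out a library leaves 2 against 3.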
